A study of Rattus norvegicus with 10 samples.

Results

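Slc6a3 encodes the dopamine transporter and is 1 of the 3334 genes in the deposited table of lens capsule transcripts. It was found by its gene name, on chromosome 1 of Rnor_6.0 from 32321580 to 32363983 on the minus strand, with a gene length of 3418 bases. It was chosen by its measured counts, on their difference between these groups, so that difference is described here without a test. Both capsules (2 per sample) came from a single rat, and the 10 rats were male Sprague-Dawley animals 6 weeks of age. In the Hypothermia Group (n = 5) the isolated lenses were kept in Hibernate-A medium at 4°C for 8 h before the capsules were taken. In the Normal Group (n = 5) the capsules were taken directly after euthanasia, so low temperature and the hours in medium cannot be told apart. The library kit is not stated to mark strand, and reads antisense to Slc6a3 would be counted with it.

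The dopamine transporter is a membrane protein of the SLC6 family that carries dopamine back into dopamine neurons together with sodium and chloride, along the sodium gradient kept by the sodium pump. It ends dopamine signalling at the synapse and is a defining gene of midbrain dopamine neurons. The lens capsule carries lens epithelial cells, which differentiate at the lens equator into fibre cells. Mip, the water channel of the fibre membrane, Lim2, a fibre membrane protein, and Bfsp1, a beaded filament protein of the fibre cytoskeleton, mark the fibre cells and were the genes against which Slc6a3 was compared. Pitx3 is a transcription factor of both places, needed for the lens and for midbrain dopamine neurons.

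The promoters of these 4 genes are shown because their transcripts were all higher in the Hypothermia Group. They are RefSeq sequences of the GRCr8 assembly, from 250 bases before the gene start to 50 after it, and all 4 genes matched by symbol. Slc6a3 is at chr1:31578913-31579212 on the minus strand, Mip at chr7:1231655-1231954 and Lim2 at chr1:102973938-102974237 on the plus strand, and Bfsp1 at chr3:151682788-151683087 on the minus strand. Lim2 lies on the minus strand in Rnor_6.0, and whether its window holds the start of the counted gene was not tested. Capitals mark matches on either strand to any of 6 motifs. These were the heat shock element (GAANNTTC), the bicoid site of the Pitx family (TAATCC), a Maf site (TGCTGA), the GC box (GGGCGG), the NBRE of the orphan receptor Nr4a2 (AAAGGTCA) and the TATA box (TATAAA).
Slc6a3: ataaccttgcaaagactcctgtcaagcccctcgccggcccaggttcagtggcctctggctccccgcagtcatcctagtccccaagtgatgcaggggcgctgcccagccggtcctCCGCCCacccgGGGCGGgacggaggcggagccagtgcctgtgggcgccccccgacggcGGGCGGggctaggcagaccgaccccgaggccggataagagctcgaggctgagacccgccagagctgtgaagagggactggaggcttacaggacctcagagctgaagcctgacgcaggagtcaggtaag
Mip: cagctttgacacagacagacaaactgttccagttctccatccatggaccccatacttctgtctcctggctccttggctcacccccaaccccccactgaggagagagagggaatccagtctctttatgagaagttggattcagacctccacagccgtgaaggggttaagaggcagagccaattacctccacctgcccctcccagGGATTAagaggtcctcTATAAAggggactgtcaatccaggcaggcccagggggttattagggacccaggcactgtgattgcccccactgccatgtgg
Lim2: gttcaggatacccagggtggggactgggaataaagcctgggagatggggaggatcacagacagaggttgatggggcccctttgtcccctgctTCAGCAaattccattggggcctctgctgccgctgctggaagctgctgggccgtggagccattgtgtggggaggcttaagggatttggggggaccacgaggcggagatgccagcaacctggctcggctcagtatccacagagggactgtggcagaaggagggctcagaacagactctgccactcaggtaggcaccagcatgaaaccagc
Bfsp1: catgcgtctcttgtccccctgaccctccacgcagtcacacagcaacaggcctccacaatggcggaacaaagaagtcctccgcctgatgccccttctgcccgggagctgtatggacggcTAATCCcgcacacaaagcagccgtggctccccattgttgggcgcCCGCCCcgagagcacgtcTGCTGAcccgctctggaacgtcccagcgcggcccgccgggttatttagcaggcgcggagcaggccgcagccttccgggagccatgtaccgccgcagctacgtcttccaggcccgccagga

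The Slc6a3 promoter had a GC content of 68.0%, against a median of 51.7% over 33469 promoters, of which 10.6% had a higher GC content. It matched the GC box alone, beginning at positions -136, -125 and -78 from the gene start, and 33.1% of all promoters hold that motif. The Mip promoter matched the bicoid site at -47 and the TATA box at -31. The bicoid site was also in the Bfsp1 promoter, at -132, and is in 7.17% of all promoters, while 14.2% hold the TATA box. Bfsp1 matched the Maf site at -70 and the GC box at -88, and Lim2 matched the Maf site at -158, a motif in 18.4% of promoters. None of the 4 windows held the heat shock element or the NBRE, which are in 8.59% and 1.43% of promoters. No motif in the Slc6a3 window was shared with Mip or Lim2, and these matches of letters are a description of the windows only.

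Slc6a3 was scarce in the Normal Group. Normal replicates 1 to 5 had 31, 12, 13, 13 and 15 counts, which gave normalized counts of 28.7, 9.82, 10.3, 10.4 and 13.7. Hypothermia replicates 1 to 5 had 171, 73, 154, 70 and 65 counts, or normalized counts of 206, 76.3, 193, 71.4 and 87.3. The groups did not overlap, and the lowest rat of the Hypothermia Group was 2.49 times the highest of the Normal Group. The mean of the Hypothermia rats, 127 ± 66.9 (SD, n = 5) normalized counts, was 8.70 times that of the Normal rats, 14.6 ± 8.02 (SD, n = 5). The fitted log2FoldChange was 3.12. Non-overlap was common in this table of selected genes, since 41.9% of the tested genes were higher in the Hypothermia Group without overlap.

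**Figure D1:**
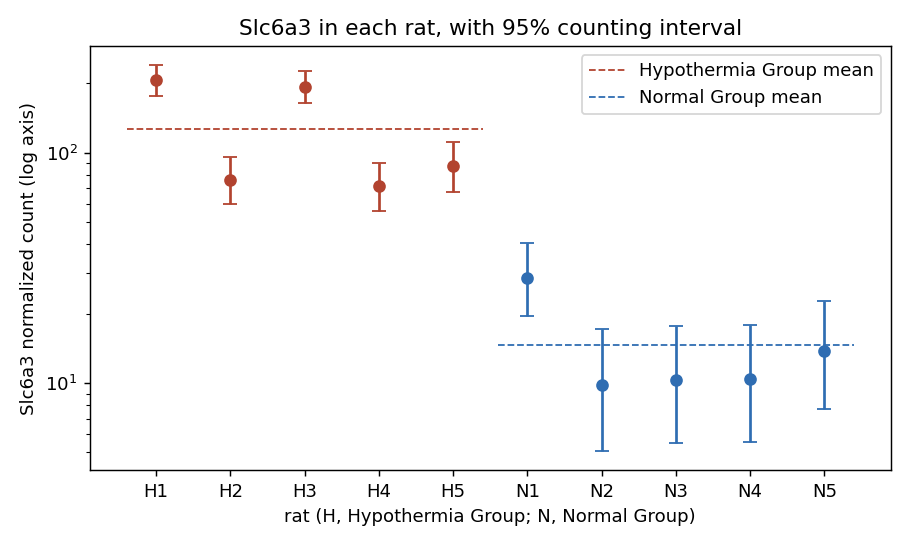
Normalized count of Slc6a3 in each rat on a log axis, with the exact Poisson 95% interval of its counts as bars and the mean of each group as a dashed line. Hypothermia replicates 1 and 3 (206 and 193) lie above the other 3 rats of their group, and Normal replicate 1 (28.7) lies above the other 4 of its own.

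Hypothermia replicates 1 and 3 had more Slc6a3 than the other 3 rats of their group by more than the counting error of single rats. The exact Poisson 95% intervals of the normalized counts of replicates 1 and 3 began at 176 and 164, above the upper bounds of replicates 2, 4 and 5, which were 96.0, 90.3 and 111. In the Normal Group, replicate 1 had an interval from 19.5 to 40.7, and the intervals of replicates 2 to 5 overlapped each other, between 5.07 and 22.6. These intervals cover counting error only, not the spread between animals, and define no classes of rats. At this depth no difference among Normal replicates 2 to 5 was detectable.

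On a scale per length, Slc6a3 remained a low transcript after the cold treatment. FPKM stands for fragments scaled to gene length, here with the same scaling between rats as the normalized counts. The FPKM of Slc6a3 was 3.62, 1.34, 3.40, 1.26 and 1.54 in Hypothermia replicates 1 to 5. Normal replicates 1 to 5 had 0.504, 0.173, 0.182, 0.183 and 0.241. Of all listed genes, 97.2% had a higher mean FPKM in the Normal Group and 83.9% in the Hypothermia Group. The mean FPKM of Mip was 1077 times that of Slc6a3 in the Normal Group and 930 times in the Hypothermia Group, that of Lim2 was 1687 and 1212 times, and that of Bfsp1 was 718 and 370 times.

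The fibre genes were far more abundant and differed more among the Normal rats. Mip had normalized counts of 26749, 5996, 2179, 3733 and 14122 in Normal replicates 1 to 5, so that the highest was 12.3 times the lowest. The corresponding factor was 6.30 for Lim2 and 8.70 for Bfsp1, against 2.92 for Slc6a3. Among Hypothermia rats Slc6a3 varied about as much as the fibre genes, by a factor of 2.89 against 3.16 for Mip, 2.42 for Lim2 and 2.98 for Bfsp1. In the Hypothermia Group Mip had normalized counts of 99089, 57302, 67313, 41506 and 131081 in replicates 1 to 5. Replicate 5 was thus the highest rat for Mip, as it was for Lim2 (55981) and Bfsp1 (55301), while for Slc6a3 it was the third of 5. The log2FoldChanges were 2.91 (SE 0.66) for Mip, 2.64 (SE 0.48) for Lim2 and 2.16 (SE 0.55) for Bfsp1. In bulk capsules, more fibre cells and more RNA per cell cannot be told apart.

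The ratio of Slc6a3 to a fibre gene within a rat does not depend on the scaling. Per 1000 Mip counts there were 2.08, 1.33, 2.87, 1.72 and 0.666 Slc6a3 counts in Hypothermia replicates 1 to 5. In Normal replicates 1 to 5 there were 1.07, 1.64, 4.75, 2.78 and 0.972. The groups overlapped, with medians of 1.72 and 1.64, and the ratio differed 7.12-fold between the highest and the lowest rat. Per 1000 Lim2 counts the Hypothermia Group had 1.56 to 5.13 Slc6a3 counts (median 3.09) and the Normal Group 1.96 to 4.95 (median 2.18). Per 1000 Bfsp1 counts it had 1.58 to 9.62 (median 3.85) against 1.58 to 5.82 (median 2.38). For each of the 3 fibre genes, Hypothermia replicate 3 and Normal replicate 3 had the highest ratio of their group.

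**Figure D2:**
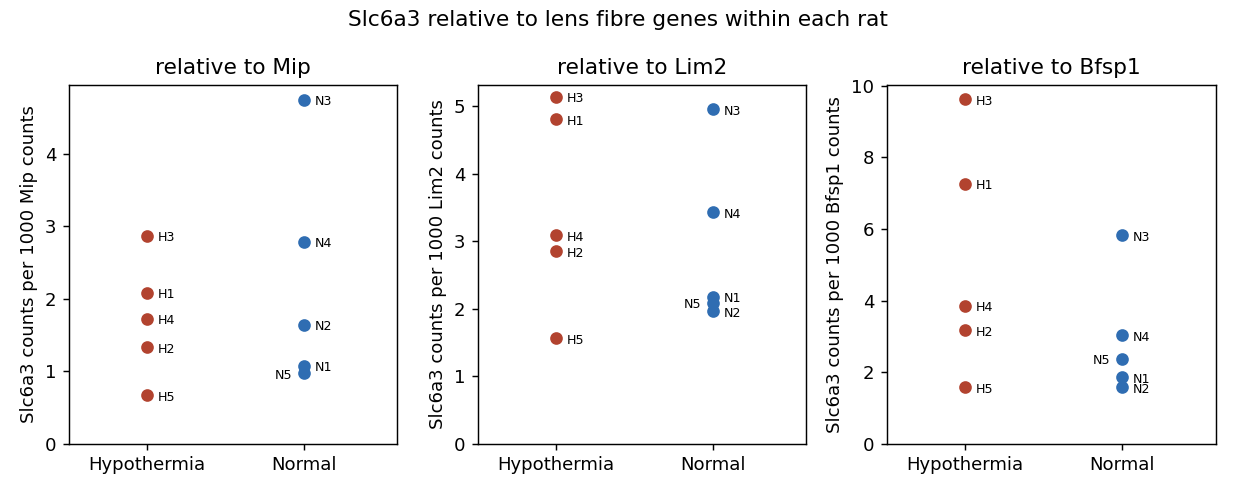
Slc6a3 counts per 1000 counts of Mip, Lim2 and Bfsp1 in each rat (points, labelled H or N with the replicate number), on linear axes from 0. The groups overlap in all 3 panels, and Hypothermia replicate 5 is the lowest rat of its group in each.

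Covariation was then measured after subtraction of each group's mean on the log2 scale, which removes the difference that singled Slc6a3 out. Over the 10 rats, Pearson's r of Slc6a3 was 0.61 with Mip (exact permutation p = 0.0501, adjusted p = 0.0751 over the 3 genes). It was 0.64 with Lim2 (exact permutation p = 0.0459, adjusted p = 0.0751) and 0.41 with Bfsp1 (exact permutation p = 0.237, adjusted p = 0.237). Spearman's rho was 0.56, 0.53 and 0.27 in the same order (exact permutation p = 0.0673, 0.104 and 0.428, adjusted p = 0.156, 0.156 and 0.428). Slc6a3 deviated to the same side as Mip in 8 of 10 rats, as Lim2 in 8 and as Bfsp1 in 7. No relation passed the adjusted threshold, and the groups of 5 were too small for an r of their own.

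The fibre genes followed one another more closely than Slc6a3 followed them, as r was 0.98 between Mip and Lim2, 0.95 between Lim2 and Bfsp1 and 0.92 between Mip and Bfsp1. The difference between these values was not tested, and all 4 genes share each rat's scaling. Of 2881 other genes whose normalized count averaged 50 or more, 14.0% had a higher r with Slc6a3 than Mip had, 11.3% than Lim2 and 35.02% than Bfsp1, where the median r was 0.25. The relation rested on a few rats. Without Normal replicates 1 and 3, which deviated most in each fibre gene, r was 0.38 for Mip, 0.44 for Lim2 and -0.07 for Bfsp1. Without Hypothermia replicate 5, r was 0.72 for Mip and 0.77 for Lim2 (exact permutation, adjusted p = 0.00885 for both), and without Normal replicate 1 it was 0.34 and 0.38 (exact permutation, adjusted p = 0.407 for both). The scaling also mattered, as with totals of the listed genes r was 0.31 for Mip and 0.35 for Lim2 (exact permutation, adjusted p = 0.453 for both). These totals contain the fibre genes and the abundant crystallins themselves, so they are not a scaling free of fibre RNA. The crystallin Cryaa alone averaged 2264042 counts per Hypothermia rat and 962632 per Normal rat.

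**Figure D3:**
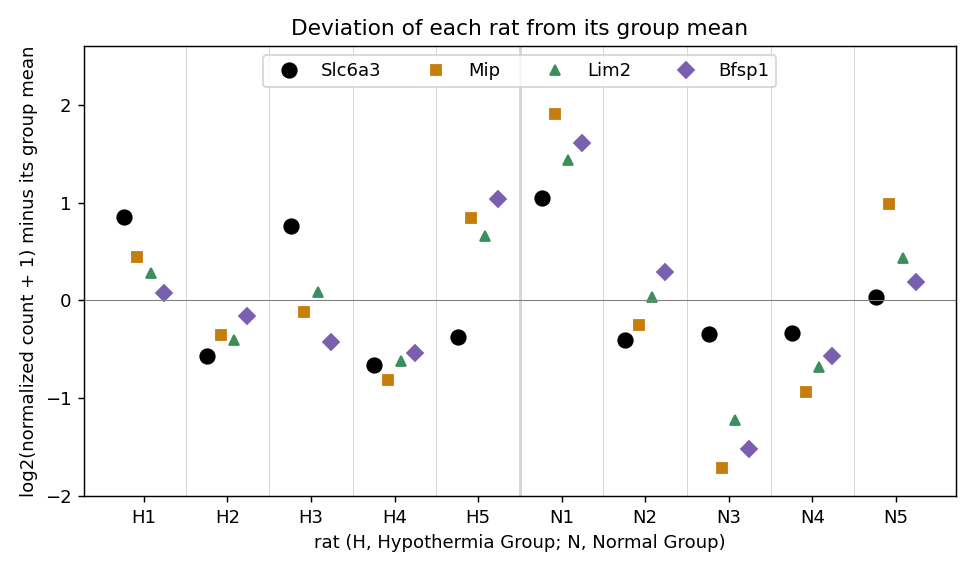
Deviation of each rat from its group mean in log2(normalized count + 1) for Slc6a3, Mip, Lim2 and Bfsp1. Slc6a3 lies above the fibre genes in Hypothermia replicates 1 and 3 and in Normal replicates 3 and 4, and below them in Hypothermia replicates 2 and 5 and Normal replicates 1, 2 and 5.

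The genes most like Slc6a3 were sought by the root mean square difference between profiles on the log2 scale over the 10 rats. Centring over all rats keeps the group difference on which Slc6a3 was chosen, so genes with a similar log2FoldChange lie close. That of Slc6a3 was 3.12, that of Armh4 2.92 and that of Lim2 2.64. Centred over all rats, the closest were Armh4 (0.35), Wnt5b (0.36), a Wnt ligand, Dner (0.41), a Notch-related transmembrane protein, Gpr160 (0.47), an orphan receptor, and Lim2 (0.58). Mip ranked 50 (0.82) and Bfsp1 ranked 63 (0.86) of 2881 genes, where a flat profile would lie at 1.62. Armh4 had normalized counts of 640, 309, 596, 317 and 556 in Hypothermia replicates 1 to 5, and of 112, 51.5, 39.8, 35.2 and 82.4 in Normal replicates 1 to 5. It thus shared the high values of Hypothermia replicates 1 and 3 and of Normal replicate 1, but was also high in Hypothermia replicate 5.

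Centred within each group, so that only differences among rats of one group counted, the closest gene was Ngfr (0.25), the low-affinity neurotrophin receptor. It was followed by Plxdc1 (0.30), Ints6l (0.33), Ptprm (0.33), a receptor tyrosine phosphatase, and Slc46a3 (0.33), a solute carrier. Ngfr had normalized counts of 2287, 1198, 2482, 1155 and 1236 in Hypothermia replicates 1 to 5, the same pair of high rats as Slc6a3. In Normal replicates 1 to 5 it had 607, 401, 322, 372 and 466, again with replicate 1 highest. Lim2 ranked 1042 (0.57), near the distance of a flat profile (0.61), and Mip (0.80) and Bfsp1 (0.80) ranked 2781 and 2788 of 2881. This distance also grows with the spread of a gene, and the log2 SD among Normal rats was 1.45 for Mip and 1.15 for Bfsp1 against 0.61 for Slc6a3, so these ranks do not show that the genes moved in unlike directions.

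The other genes around dopamine and its transporter were taken from lists of 79 genes, of which 16 were in the table with 1 row each. Gnas, which couples dopamine receptors, occupied 2 rows and was not counted. The quasi-likelihood test of edgeR, after Benjamini-Hochberg adjustment, called 10 of the 16 higher and 2 lower in the Hypothermia Group. Over all 3222 tested genes of this selected table, 52.3% were called higher and 20.5% lower, so calls were common in either direction. With TMM scaling 7 were called higher and 4 lower, and with totals of the listed genes 0 and 8. The median log2FoldChange of the 16 was 0.82 and that of all tested genes 0.36.

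Of 13 genes for dopamine synthesis, storage and breakdown, 3 were in the table and 2 of these rose. Pcbd1 and Qdpr regenerate tetrahydrobiopterin, the cofactor of tyrosine hydroxylase. Pcbd1 rose by 1.51 on the log2 scale (SE 0.26, edgeR adjusted p = 0.00627), and its normalized counts ran from 432 to 884 in Hypothermia rats against 155 to 366 in Normal rats. With totals of the listed genes Pcbd1 had 0.30 and was not called (edgeR adjusted p = 0.676). Qdpr rose by about the median of all tested genes (0.38, SE 0.09, edgeR adjusted p = 0.0206). It was below 0 with totals of the listed genes, was not called with TMM, and lost its call when any of 4 rats was left out. Aldh2, an aldehyde dehydrogenase, had -0.28 (SE 0.10) and was not called (edgeR, adjusted p = 0.0851). It was called lower with TMM (-0.57), median-of-ratios factors (-0.60) and totals of the listed genes (-1.53), and without Normal replicate 1 (-0.34). Tyrosine hydroxylase (Th), the vesicular transporters, the dopamine receptors and the 5 other monoamine carriers looked for were not analysed here.

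Of 13 known partners of the transporter, 6 were in the table. Over all tested genes 41.9% were higher in the Hypothermia Group without overlap, as were 4 of these 6 partners. They were Camk2a, a kinase that acts on the transporter, with 1.20 (SE 0.24), Park7 with 1.10 (SE 0.17), the membrane raft protein Flot1 with 0.90 (SE 0.15) and the scaffold Rack1 with 0.75 (SE 0.15). The edgeR adjusted p-values lay between 0.00459 (Park7) and 0.00858 (Camk2a), and all 4 log2FoldChanges were below 0 with totals of the listed genes. The protein kinase C genes differed in sign, with 1.04 (SE 0.34) for Prkca and -1.34 (SE 0.53) for Prkcb, and neither passed (edgeR adjusted p = 0.0712 and 0.142). Prkca passed with DESeq2 (adjusted p = 0.0180) and in edgeR with the replicate block (adjusted p = 0.0399), while with totals of the listed genes it had -0.21 and Prkcb was called lower (-2.54).

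Of 11 transcription factors of dopamine neurons, Pitx3 alone was in the table. Its normalized count was 4122, 4103, 4494, 4361 and 4035 in Hypothermia replicates 1 to 5, and 3447, 3671, 3412, 2925 and 3242 in Normal replicates 1 to 5. The groups did not overlap, and the rats within a group lay close together. Pitx3 rose by 0.34 on the log2 scale (SE 0.08, edgeR adjusted p = 0.0198), about the median of all tested genes. It was not called with TMM, at 0.05, had -0.89 with totals of the listed genes, and lost its call when either of 2 rats was left out.

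Of 17 other SLC6 genes, 3 were in the table, and they moved in both directions. Slc6a11, a GABA transporter, rose (0.96, SE 0.27, edgeR adjusted p = 0.0366), from 44.7 ± 14.8 to 87.1 ± 25.9 normalized counts (SD, n = 5), but was not called with TMM and had -0.32 with totals of the listed genes. Slc6a8, the creatine transporter, fell (-0.57, SE 0.14, edgeR adjusted p = 0.0230), from 336 ± 77.6 to 226 ± 23.3 (SD, n = 5). Slc6a15, a transporter of neutral amino acids, fell (-1.04, SE 0.31, edgeR adjusted p = 0.0432), from 60.2 ± 24.2 to 29.0 ± 7.79 (SD, n = 5). Leaving out single rats removed the call of Slc6a15 for 8 of the 10 rats, that of Slc6a11 for 6 and that of Slc6a8 for 3.

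Of 11 sodium pump genes, 3 were in the table. The pump regulators Fxyd6 and Fxyd1 rose by 1.33 (SE 0.25, edgeR adjusted p = 0.00681) and 1.22 (SE 0.23, edgeR adjusted p = 0.00810). Atp1b1, a beta subunit of the pump, had -0.73 (SE 0.27) and was not called (edgeR, adjusted p = 0.109), although its groups did not overlap. It was called lower with TMM (-1.02), median-of-ratios factors (-1.04), totals of the listed genes (-1.96) and DESeq2 (-0.73), and without Hypothermia replicate 4, its lowest rat (-0.52).

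**Figure D4:**
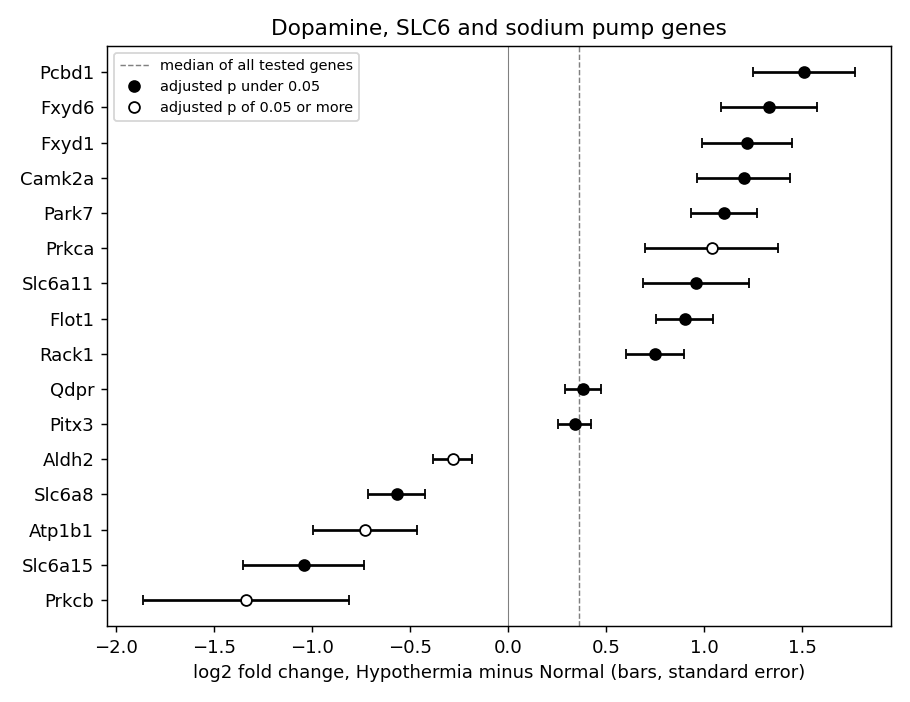
log2 fold change of the 16 tested dopamine, SLC6 and sodium pump genes, Hypothermia minus Normal, with the SE as bars and the median of all tested genes (0.36) as a dashed line. Filled points had an adjusted p under 0.05 in edgeR's test (10 above 0 and 2 below), and Pitx3 and Qdpr lie near the dashed line.

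Markers of cell types differed between the groups in both directions, and their part in the difference of Slc6a3 was not tested. Of 17 lens fibre markers 13 were in the table, with a summed FPKM from 16087 to 35477 in Hypothermia rats against 2739 to 10022 in Normal rats. The most abundant was Grifin, and 12 of the 13 were called higher, where 52.3% of all tested genes were. All 15 listed crystallins were called higher too, of which Cryaa was the most abundant. Leaving out single rats removed the call of Cryaa for 4 of the 10 rats and that of Bfsp1 for 5. The 3 listed lens epithelium markers (Gja1, Pax6 and Mab21l1) summed to an FPKM from 530 to 602 against 629 to 749. Pax6 alone was called lower (-0.26, edgeR adjusted p = 0.0499), where 20.5% of all tested genes were. Gja1 (-0.43, edgeR adjusted p = 0.0568) and Mab21l1, which went up (0.26, edgeR adjusted p = 0.166), were not called. Of 15 neuron markers 5 were in the table, with a summed FPKM from 416 to 828 in Hypothermia rats against 193 to 390 in Normal rats, mainly from Uchl1 (mean FPKM of 614 and 280). Tubb3 and Eno2 were also called higher, but their groups overlapped, and Rbfox3 was not called (edgeR adjusted p = 0.109). The axonal filament gene Nefl went the other way, with 0 counts in all 5 rats of the Hypothermia Group against 5 to 38 in Normal rats, and was not tested. Of 14 retina markers 2 were in the table (Rlbp1 and Calb2), with a summed FPKM from 2.58 to 4.46 in Hypothermia rats against 4.61 to 6.04 in Normal rats. Calb2 fell (-5.08, SE 0.73, edgeR adjusted p = 0.00459), while the groups overlapped for Rlbp1, which was not called (edgeR adjusted p = 0.0749). The 2 of stroma, blood and immune cells (Fn1 and Col1a1) summed to an FPKM from 0.205 to 1.27 against 1.25 to 9.77. Fn1 fell (-3.09, SE 0.80, edgeR adjusted p = 0.0293), a call lost when any of 5 rats was left out, and Col1a1 was not called. The 5 listed markers of pigment epithelium and ciliary body, of which Mfrp was the most abundant, summed to an FPKM from 1.63 to 10.8 in Hypothermia rats against 9.55 to 35.0 in Normal rats. Only 3 of them were tested, and the groups of all 3 overlapped. Of these, 1 was called lower, where 20.5% of all tested genes were, and Mfrp was not called (edgeR adjusted p = 0.114).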

How the data were processed

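Lens capsules of 10 rats, 5 in each group, were analysed by RNA-seq. Alignment by the authors used HISAT2 2.0.5 on Rnor_6.0, and featureCounts 1.5.0-p3 gave the deposited counts, which are unnormalized reads per gene. The FPKM were derived by the authors from counts and gene lengths, and differed from the normalized count per base by one constant. The deposited columns also held a log2 fold change, a p-value and an adjusted p-value from DESeq2 1.16.1, which were not used, and for each group the mean signal in normalized counts. The annotation release is not given in the sources used here.

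The 3334 genes of the table had been selected by the comparison itself, 124 had no name, and the counts of these genes summed to between 4792595 and 12415121 per rat. The authors' size factors were recovered from the group means by least squares (largest relative error 4.9e-10), and counts divided by them are called normalized counts. The test was glmQLFTest of edgeR 4.0.16 (R 4.3.3) after filterByExpr and a robust glmQLFit, and group was its single factor. p-values were adjusted by the Benjamini-Hochberg method over the number of expressed genes that the study gives. On simulated counts for 3243 genes the test called 81.5% of genes changed by 1 on the log2 scale and 7 unchanged genes. Those p-values were adjusted over the 3243 genes alone. Recovery with the adjustment over all expressed genes, or in a table selected for differences, was not tested. Covariation was computed in Python 3.11.15 with a pseudocount of 1 after subtraction of each group's mean. The p-values came from all 14400 rearrangements of rats within groups, two-sided.

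Slc6a3 was chosen for its difference between these groups, and the gene lists were chosen with earlier results of these data known. Some genes of these lists are not reported here and are in none of the list counts. Named genes were Slc6a3, Mip, Lim2 and Bfsp1, the listed members of the dopamine, SLC6 and sodium pump lists, the 5 genes closest to Slc6a3 by each likeness measure, listed genes within 500 kb, and the most abundant member of each marker list. Ngfr and Armh4 are given rat by rat as the closest by each measure. The promoter motifs, and the markers Nefl, Tubb3, Eno2, Rbfox3, Calb2, Col1a1, Pax6 and Mab21l1, were chosen after values were seen. Same-numbered rats are different animals, with correlations of their deviations from -0.17 to 0.23, and were not paired. Alternatives were TMM, median-of-ratios factors, totals of the listed genes, DESeq2 1.42.0, no filter, a replicate block, adjustment over the tested genes, a pseudocount of 0.5, and each rat left out.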

Additional observations from a re-analysis of the deposited data

Results flagged for a closer look

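Among 70 checks of a group of 5 rats for a rat far from the others, 7 found one. Chance finds about 5% of such checks if they are independent and the values normally distributed. These checks used unlogged counts of genes from the same rats, so the number found is a description only. For Slc6a3, Normal replicate 1 stood apart with a normalized count of 28.7 (the next rat had 13.7), and it was also the highest Normal rat for Pcbd1, with 366 (next 199.6). Hypothermia replicate 5 stood apart for Bfsp1 with 55301 (next 28362), Prkca with 399 (next 217), Slc6a8 with 267 (next 224) and Nkd2 with 497 (next 207). Hypothermia replicate 4 stood apart for Atp1b1 as the lowest rat, with 563 (next 1509). Without Normal replicate 1 the log2FoldChange of Slc6a3 was 3.51.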

How the results depend on the processing

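The log2FoldChange of Slc6a3 stayed positive under every setting tried. It was 1.95 with totals of the listed genes and 1.30 as a difference of mean log2(FPKM + 1), where the pseudocount of 1 is large against an FPKM this low, and between 2.87 and 3.51 with 1 rat left out. Totals of the listed genes include the crystallins, of which all 15 listed were called higher in the Hypothermia Group. These totals lowered the log2FoldChanges of all genes by a median of 1.23, TMM by 0.29 and median-of-ratios factors by 0.31. Relative to the median of all tested genes Slc6a3 was 2.76 with the authors' size factors and 2.82 with totals. Of the 16 dopamine, SLC6 and pump genes, 7 were called higher and 4 lower with TMM, and 7 and 4 with median-of-ratios factors. Totals of the listed genes gave 0 and 8. Adjustment over the tested genes alone called 11 higher and 5 lower, and with it 3221 of all 3222 tested genes were called. With 1 rat left out between 7 and 10 were called higher and between 0 and 2 lower. Over all tested genes 1686 were called higher and 662 lower with the authors' size factors, 639 and 1100 with TMM, 611 and 1101 with median-of-ratios factors, and 57 and 2398 with totals. Between 1371 and 2385 genes were called with 1 rat left out, against 2348 with all rats.

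The replicate numbers did not pair the rats, since no rat correlated best with its own number. With the replicate number as a block, 942 genes were called, 7 of the 16 were called higher and 1 lower, and the log2FoldChange of Slc6a3 was 3.08. With totals of the listed genes the r of Slc6a3 was 0.31 with Mip, 0.35 with Lim2 and -0.0321 with Bfsp1. With 1 rat left out that with Bfsp1 was between -0.0105 and 0.579, that with Mip between 0.34 and 0.72, and that with Lim2 between 0.38 and 0.77. Totals of the listed genes turned the log2FoldChanges of Qdpr (-0.86), Pitx3 (-0.89), Rack1 (-0.49), Flot1 (-0.34), Slc6a11 (-0.32), Prkca (-0.21), Park7 (-0.12), Slc46a3 (-0.0815), Uchl1 (-0.0804) and Camk2a (-0.0218) below 0. The ranks of Mip, Lim2 and Bfsp1 in likeness to Slc6a3 stayed within 1.5 times under both settings tried. Low counts of Slc6a3 in the Normal Group limit what can be said of its differences among those rats.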

Other observations

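Of the genes within 500 kb of Slc6a3 in Rnor_6.0, 3 were in the table. Nkd2, an inhibitor of Wnt signalling, rose (1.74, standard error 0.48, adjusted p = 0.0371 from edgeR), and Slc12a7, a potassium chloride cotransporter, fell (-0.53, standard error 0.14, adjusted p = 0.0276 from edgeR). Leaving out single rats removed the call of Nkd2 for 8 of the 10 rats and that of Slc12a7 for 5. LOC100912599, which was left out by the filter on low counts, had normalized counts of 117 and 288 in Normal replicates 3 and 4 and at most 9.65 in the other 8 rats. Col1a1, a collagen gene of stromal cells, was also highest in those 2 rats, with 271 and 534 against at most 63.9 elsewhere. In the gene order of GRCr8 the nearest protein-coding genes on either side of Slc6a3 were Clptm1l and Lpcat1, which were not analysed here.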
